A study of Mus musculus with 3 samples.

Results

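Methylation was measured at 10 genes that encode secreted Wnt ligands (Wnt1, Wnt3, Wnt3a, Wnt5a, Wnt6, Wnt7b, Wnt9b, Wnt10a, Wnt10b and Wnt11) in mouse embryonic stem (ES) cells, pluripotent cells of the early embryo. These 10 are among the 22350 protein-coding genes annotated on chromosomes 1 to 19 and X. They were chosen by name, and each CpG of mm9 from 5000 bp before the annotated gene start to 5000 bp after the gene end was used if it was read more than 10 times. Of the 6288 CpGs in these windows, 943 passed in both the wild-type and the Dnmt3a KO library (called shared below), out of 631561 such CpGs in the genome. The study deposited 1 reduced representation bisulfite sequencing (RRBS) sample for each of 3 genotypes, called a library below, although its methods describe libraries of both insert sizes. RRBS sequences MspI fragments after bisulfite treatment, so it samples CpG-rich DNA and only the fragments of chosen length. Wild-type and Dnmt3a KO cells had a mixed 129-C57Bl/6 background, and Dnmt TKO cells were of strain J1. The Dnmt3a KO line was made with CRISPR/Cas9 and guides to exon 7, which removes both isoforms of the de novo methyltransferase DNMT3A, and Dnmt TKO cells lack Dnmt1, Dnmt3a and Dnmt3b. Wild-type cells were grown on feeder cells or gelatine and the other cells on gelatine, so genotype cannot be told apart from culture, and for Dnmt TKO from strain. With 1 deposited sample per genotype there is no replicate check. All intervals are 95% intervals for counting error only, in which each read at each CpG counts as independent, although PCR copies and CpGs read together are not.

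Wnt ligands are lipid-modified glycoproteins that bind Frizzled receptors. In the canonical pathway, binding together with an LRP co-receptor stabilizes beta-catenin, while other ligands such as Wnt5a and Wnt11 are best known for signalling that does not need beta-catenin. Many Wnt genes are silent developmental genes in ES cells whose CpG islands lie under Polycomb marks, and such islands are usually free of DNA methylation while the DNA around them is methylated.

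The deposited tables listed between 558703 and 1035670 CpGs per library, with median depths of 29 (wild type), 17 (Dnmt3a KO) and 12 reads (Dnmt TKO). Mean methylation over each library's own CpGs with more than 10 reads was 28.4%, 17.0% and 0.0911% in that order. This checks the Dnmt TKO label but not the Dnmt3a deletion, since methylation data do not read the deleted exon. These sets of CpGs differ between the libraries. At the 631561 CpGs shared by wild type and Dnmt3a KO, the means were 17.8% and 13.4% (-4.41 points). The shared CpGs of the Wnt genes had a median of 41 reads in wild type and 20 in Dnmt3a KO. Of the markers of ES cells and of feeder fibroblasts, 1 of 5 and 2 of 5 had a CpG-rich start with enough CpGs, all under 20%, so these starts do not show how many feeder cells were present. The start of Sox2 had 0.0538% in wild type against 0.0584% in Dnmt3a KO.

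Several of the genes lie side by side. In mm9, Wnt1 (plus strand, 98620288 to 98624268) and Wnt10b (minus strand, 98602184 to 98608581) are on chromosome 15, as is Wnt7b (minus strand, 85365869 to 85412251). Wnt6 (74818466 to 74831893) and Wnt10a (74838090 to 74850753) are on the plus strand of chromosome 1. Wnt3 (plus strand, 103635464 to 103679271), Wnt9b (minus strand, 103588678 to 103611135) and Wnt3a (minus strand, 59061535 to 59104254) are on chromosome 11. Wnt5a (29317936 to 29340633 of chromosome 14) and Wnt11 (105983622 to 106003705 of chromosome 7) are on the plus strand. No shared CpG fell in the windows of 2 of the genes.

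Of the genes, 9 have a CpG-rich start, defined as a CpG island of the mm9 sequence within 500 bp of any transcript start of the gene. Wnt10a has none. Stretches of these islands from the 3 genes with the most shared CpGs there are shown. Each is the 150 bp with the most shared CpGs outside untranslated regions, so its density is that of a picked stretch. All sequences are the plus strand of mm9, and capitals mark the CpGs covered in both libraries. The Wnt1 stretch is in coding exon 4, inside an island that begins near the start of a shorter transcript, and the Wnt3a and Wnt7b stretches are in intron 1.
Wnt1, chr15:98622867-98623016: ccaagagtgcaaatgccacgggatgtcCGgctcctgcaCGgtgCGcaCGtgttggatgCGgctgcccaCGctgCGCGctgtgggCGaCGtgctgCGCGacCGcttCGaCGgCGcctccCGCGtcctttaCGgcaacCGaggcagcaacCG
Wnt3a, chr11:59102494-59102643: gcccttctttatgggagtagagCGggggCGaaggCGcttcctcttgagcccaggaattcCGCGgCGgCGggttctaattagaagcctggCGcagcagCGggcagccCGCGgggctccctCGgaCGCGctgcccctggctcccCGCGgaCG
Wnt7b, chr15:85407204-85407353: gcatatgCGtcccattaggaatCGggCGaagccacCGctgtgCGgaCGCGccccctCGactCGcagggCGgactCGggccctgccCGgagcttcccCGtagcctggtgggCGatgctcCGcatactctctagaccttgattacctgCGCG
The 21 marked CpGs of the Wnt1 stretch had a mean of 0.978% in wild type against 0.443% in Dnmt3a KO. The 17 of Wnt3a had 1.59% and 2.31%, and the 17 of Wnt7b had 0.971% and 0.392%. In none of the 3 did the interval of the difference leave out 0.

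Outside the starts, the Fisher test of reads called CpGs lower in Dnmt3a KO in 7 of the 9 genes measured there, against 35.2% of protein-coding genes. The shares are not matched for the number of shared CpGs there. It was 18 to 136 in these 9 genes and 5 or more in the others, and more CpGs give more chances of a call. The 101 bp around the CpG with the largest called fall in each gene are shown, because these are the places where the difference between the libraries can be read at single CpGs.
Wnt3a, chr11:59063335-59063435: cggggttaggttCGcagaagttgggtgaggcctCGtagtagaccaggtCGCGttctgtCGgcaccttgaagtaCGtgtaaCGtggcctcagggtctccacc
Wnt7b, chr15:85410338-85410438: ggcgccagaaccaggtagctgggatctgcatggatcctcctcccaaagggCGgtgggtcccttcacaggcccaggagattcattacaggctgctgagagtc
Wnt11, chr7:105994703-105994803: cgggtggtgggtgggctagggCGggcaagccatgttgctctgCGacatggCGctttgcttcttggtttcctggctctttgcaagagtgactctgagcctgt
Wnt10a, chr1:74840013-74840113: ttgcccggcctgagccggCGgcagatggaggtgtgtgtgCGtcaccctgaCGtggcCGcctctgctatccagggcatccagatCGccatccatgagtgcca
Wnt6, chr1:74829200-74829300: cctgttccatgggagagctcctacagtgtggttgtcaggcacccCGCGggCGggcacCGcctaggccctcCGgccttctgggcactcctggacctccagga
Wnt9b, chr11:103592366-103592466: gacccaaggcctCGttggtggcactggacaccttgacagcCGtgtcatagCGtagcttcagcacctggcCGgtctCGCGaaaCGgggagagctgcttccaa
Wnt5a, chr14:29317234-29317334: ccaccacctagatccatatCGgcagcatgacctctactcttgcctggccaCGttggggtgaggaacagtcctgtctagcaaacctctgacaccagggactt
In the Wnt3a stretch, in coding exon 4, the 7 marked CpGs had a mean of 73.5% in wild type against 16.8% in Dnmt3a KO. The single marked CpG of the Wnt7b stretch, in intron 1, had 57.4% and 0%. The 3 of Wnt11, in intron 3, had 75.4% and 24.3%, and the 5 of Wnt10a, in coding exon 2, had 54.8% and 9.86%. The Wnt6 stretch is in coding exon 3, the Wnt9b stretch in coding exon 4 and the Wnt5a stretch upstream of the gene, with means of 33.5%, 71.5% and 61.6% in wild type and 11.5%, 40.6% and 38.3% in Dnmt3a KO. These stretches hold between 2 and 8 CpGs in 101 bp, against 17 to 22 in 150 bp for the start islands shown. The start stretches were picked for the most shared CpGs, so this contrast is built in.

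**Figure D1:**
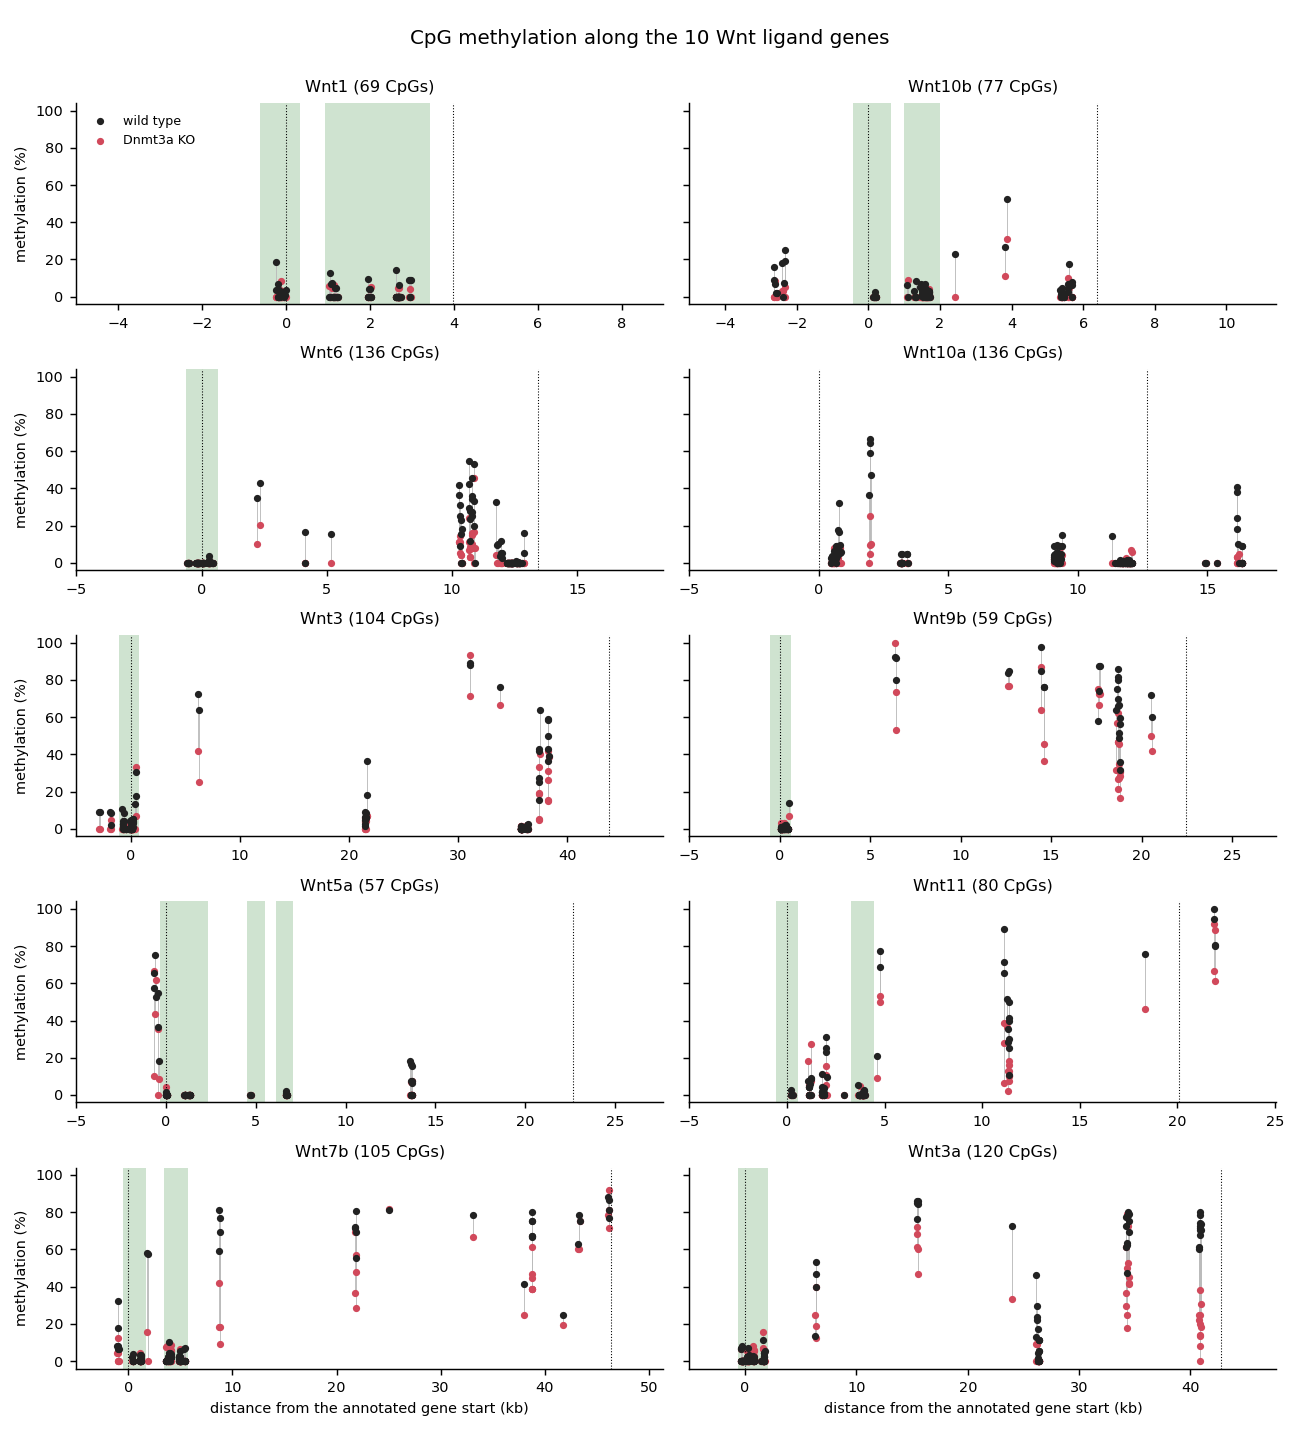
Methylation (%) of each shared CpG in wild type (black) and Dnmt3a KO (red) against the distance in kb from the annotated gene start, for each of the 10 genes; dotted lines mark the gene start and end, green bands the CpG-rich starts, and grey lines join the values of a CpG. Most CpGs in the green bands sit near 0 in both libraries, the highest being a CpG of Wnt3 at 30.8% and 33.3%, and those outside reach up to 100% with the red points mostly under the black.

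At the CpG-rich starts, methylation was close to 0 in all 3 libraries. Over the 444 shared CpGs of the 9 genes, the mean was 1.38% in wild type against 0.633% in Dnmt3a KO, which differ by -0.745 percentage points (-1.21 to -0.276). Reads were also counted over each library's own start CpGs above 10 reads, not the shared ones. Wild type had 429 methylated of 26411 (1.62%), Dnmt3a KO 75 of 11487 (0.653%) and Dnmt TKO 0 of 3227, which allows up to 0.0930%. No CpG at a start was called in either direction, and 265 of the 444 had no methylated read in either library. All 9 starts were under 20% in wild type, as were 98.9% of the 11463 protein-coding genes with a CpG-rich start that could be measured.

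Among the 10 ligand genes, Wnt3, which is needed for the primitive streak to form, had the highest start level in wild type (3.51%) and 1.16% in Dnmt3a KO over 40 CpGs. Wnt1, which patterns the midbrain and hindbrain, had 2.16% and 0.745% over 69 CpGs, and Wnt10b, which acts in bone and fat cell formation, 1.90% and 0.384% over 46. In these 3 genes the interval of the difference lay under 0: -2.36 points for Wnt3 (-4.0 to -0.714), -1.41 for Wnt1 (-2.79 to -0.0431) and -1.52 for Wnt10b (-2.60 to -0.429). Wnt3a, needed for trunk and tail mesoderm, had 1.33% and 1.34% over 68 CpGs, and Wnt7b, which acts in lung and kidney development, 1.34% and 0.703% over 71. Wnt9b, an inducer of kidney tubules, had 0.743% and 0.529% over 30 CpGs, and Wnt6, a ligand of the surface ectoderm, 0.110% and 0% over 48. The start of Wnt5a, a ligand of axis and limb outgrowth, had 0.122% and 0.111% over 39 CpGs, and that of Wnt11, which acts in kidney branching and cell movements, 0.505% and 0.144% over 33. In the last 6 genes the interval of the difference held 0, so a difference was not detectable at this depth. The median start level of the 11463 protein-coding genes measured there was also lower in Dnmt3a KO (0.0326%, against 0.112% for wild type). The paper gives the bisulfite conversion of each library only as a lower bound. The intervals leave conversion out, and its part in these small differences at starts was not tested. Wnt3 also had the only start CpG with 20% or more as a mean of both libraries. It lies 503 bp after the gene start, with 30.8% in wild type against 33.3% in Dnmt3a KO.

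In 23 clusters of shared CpGs at starts (a cluster ends at a gap over 300 bp), the highest wild-type mean was 3.51%, at Wnt3. The highest Dnmt3a KO mean was 2.07%, in another cluster, in intron 1 of Wnt3a, which had 1.70% in wild type. The islands of Wnt5a, which has 6 transcript starts, were sampled from -24 to 6739 bp from the gene start, and those of Wnt7b from 387 to 5435 bp. The low values of Wnt1 ran through coding exons 2, 3 and 4, with cluster means between 1.84% and 2.36% in wild type and between 0.525% and 1.10% in Dnmt3a KO.

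Outside the starts, methylation was higher and differed widely between the genes, and it was lower in Dnmt3a KO. Over 451 shared CpGs of gene bodies, the mean was 22.5% in wild type against 12.5% in Dnmt3a KO, or -10.01 points (-10.8 to -9.21). Over 48 CpGs of the flanks it was 22.7% and 12.3%, a difference of -10.3 points (-12.9 to -7.80). The flank CpGs come from 6 genes, and within a gene body and flank lay far apart. In wild type, Wnt7b had 69.9% in the body and 13.2% in the flank, Wnt11 21.9% and 88.8%, and Wnt5a 6.57% and 51.4%. Shares of methylated reads were taken over each library's own CpGs above 10 reads, not the shared ones. Gene bodies had 18.2% (wild type), 11.6% (Dnmt3a KO) and 0.151% (Dnmt TKO). Flanks had 24.9%, 12.2% and 0% (0 of 508 reads in Dnmt TKO, which allows up to 0.591%). The read-based difference over the shared gene body CpGs was -7.01 points, and with CpGs over 20 reads, whose wild-type mean was 11.7%, it was -6.27 points.

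Of the 10 genes, 9 had at least 5 shared CpGs outside the start, and Wnt1 had none. All 9 means were lower in Dnmt3a KO, as were 92.0% of 9910 protein-coding genes, and 8 of 9 were lower by 5 points or more, against 63.9% of those genes. With CpGs over 20 reads 5 of 8 were lower by this much, and with reads pooled 5 of 9. The intervals of all 9 differences lay under 0.

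Wnt10a, which acts in tooth and skin appendage formation, had the lowest mean outside the start, with 5.41% in wild type against 1.20% in Dnmt3a KO over 136 CpGs. Since it has no CpG-rich start, all its CpGs were counted here, including 29 at 476 to 861 bp with 5.82% in wild type. Wnt10b had 8.90% and 2.47% over 31 CpGs and Wnt6 9.97% and 3.19% over 88. Of the CpGs sampled there, 5 in Wnt10a, 1 in Wnt10b and 12 in Wnt6 had 20% or more as a mean of both libraries. Over all 136, 31 and 88 CpGs, the 3 genes differed by -4.21 (-5.08 to -3.34), -6.42 (-8.84 to -4.01) and -6.78 points (-8.26 to -5.30). Each gene thus lost most of a small wild-type level (77.9%, 72.2% and 68.0%). Wnt3 had 16.3% and 9.98% over 64 CpGs, Wnt5a 24.0% and 13.4% over 18, and Wnt11 27.6% and 16.2% over 47. The highest means were those of Wnt3a with 47.5% and 23.7% over 52 CpGs, Wnt7b with 59.9% and 39.5% over 34, and Wnt9b with 71.7% and 51.7% over 29. The differences were -23.8 points in Wnt3a, -20.4 in Wnt7b and -19.99 in Wnt9b, and their intervals overlap (-27.0 to -20.6, -24.5 to -16.3 and -24.5 to -15.5). Each mean depends on which MspI fragments of the gene were read, so the order of the genes is an order of the sampled CpGs.

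**Figure D2:**
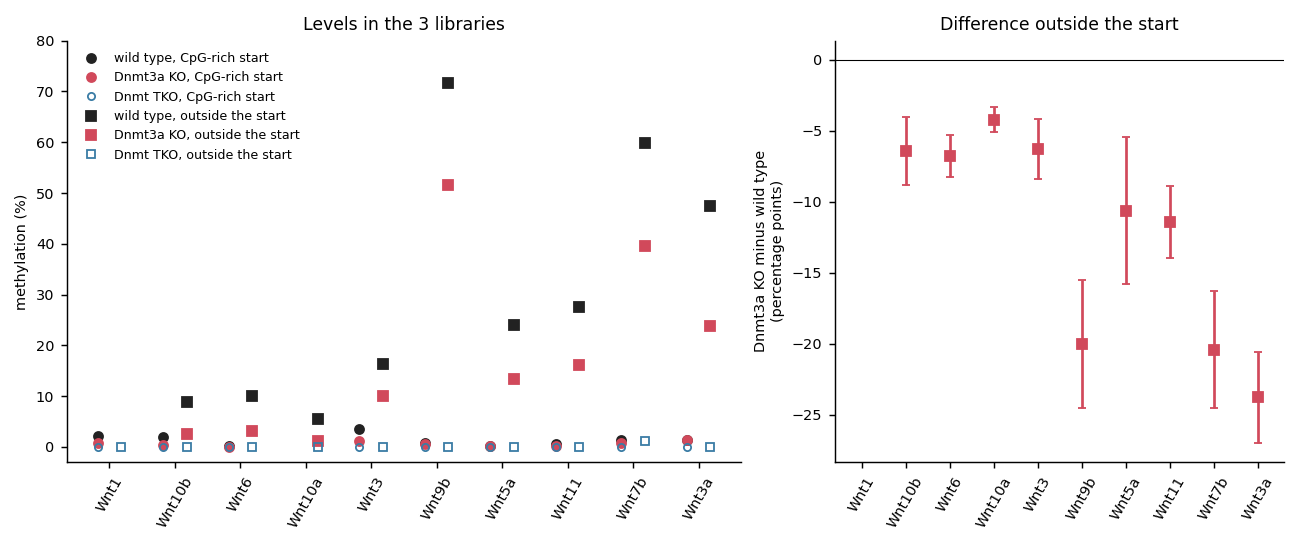
Left, mean methylation (%) of each gene at its CpG-rich start (circles) and outside it (squares) over CpGs shared by wild type (black) and Dnmt3a KO (red), with the share of methylated reads over all CpGs above 10 reads in Dnmt TKO (blue, open). Right, the difference outside the start in percentage points with its 95% interval for counting error; Wnt1 has no shared CpG there, all 9 other intervals lie under 0, and the largest fall is that of Wnt3a.

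At single CpGs, 18 of the 943 were called lower in Dnmt3a KO (1.91%, against 1.64% of all shared CpGs) and 0 were called higher (0.0304% of all shared CpGs). A call is a two-sided Fisher's exact test of the reads of the 2 libraries with an adjusted p under 0.05 over all 631561 CpGs, together with a difference of at least 20 points. It compares the libraries and not the genotypes. The 147 CpGs outside the starts with a mean of both libraries of 20% or more are called methylated here. Of these, 15 were called lower (10.2%, against 6.59% of all methylated CpGs of the genome, starts included). By band of the mean of both libraries, 18.1% of the Wnt CpGs from 20% to under 50% were called lower against 14.9% over the genome, and from 50% to under 80% it was 3.28% against 5.43%. The calls were spread over 7 of the 9 genes, with 5 in Wnt3a, 4 each in Wnt11 and Wnt10a, 2 in Wnt6 and 1 each in Wnt9b, Wnt5a and Wnt7b. Of all protein-coding genes measured outside the start, 35.2% had a call, but the shares of genes are not matched for the number of CpGs per gene. Another 84 methylated CpGs were lower by 20 points or more without a call, at a median of 32.5 wild-type and 18 Dnmt3a KO reads.

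The largest called fall was at position 59063385 of chromosome 11, in coding exon 4 of Wnt3a, where 25 of 35 reads were methylated in wild type (71.4%) and 0 of 14 in Dnmt3a KO (adjusted p = 0.000906, Fisher's exact test). The smallest adjusted p was at position 59063415 of the same exon, with 43 of 58 reads (74.1%) and 2 of 24 (8.33%) methylated (adjusted p = 3.68e-05, Fisher's exact test). Both sites belong to the Wnt3a stretch printed above. In intron 3 of Wnt11, the CpG at 105994753 of chromosome 7 had 25 of 28 reads methylated in wild type (89.3%) and 5 of 18 in Dnmt3a KO (27.8%). In intron 1 of Wnt7b, the CpG at 85410388 of chromosome 15 had 27 of 47 reads methylated (57.4%) and 0 of 22. It lies 1863 bp after the gene start, between the 2 islands of the start. In coding exon 2 of Wnt10a, the CpG at 74840063 of chromosome 1 had 25 of 39 (64.1%) and 2 of 21 (9.52%), and upstream of Wnt5a the CpG at 29317284 of chromosome 14 had 23 of 40 (57.5%) and 2 of 20 (10.0%). The called CpGs of Wnt9b and Wnt6 differed less. In Wnt9b the CpG at 103592416 of chromosome 11 had 88 of 108 reads methylated (81.5%) and 21 of 45 (46.7%), and in Wnt6 the CpG at 74829250 of chromosome 1 had 39 of 86 (45.3%) and 7 of 47 (14.9%).

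Wnt10b and Wnt3 had no call. The CpG of Wnt10b with the highest mean of both libraries, at 98604701 of chromosome 15 in coding exon 4, had 52.6% in wild type against 30.8% in Dnmt3a KO with 19 and 13 reads. That of Wnt3, at 103666533 of chromosome 11 in intron 1, had 88.9% and 93.3% with 27 and 15 reads. Of the 147 methylated CpGs, 10 were higher in Dnmt3a KO, none of them by the test (0.130% of all methylated CpGs were called higher).

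**Figure D3:**
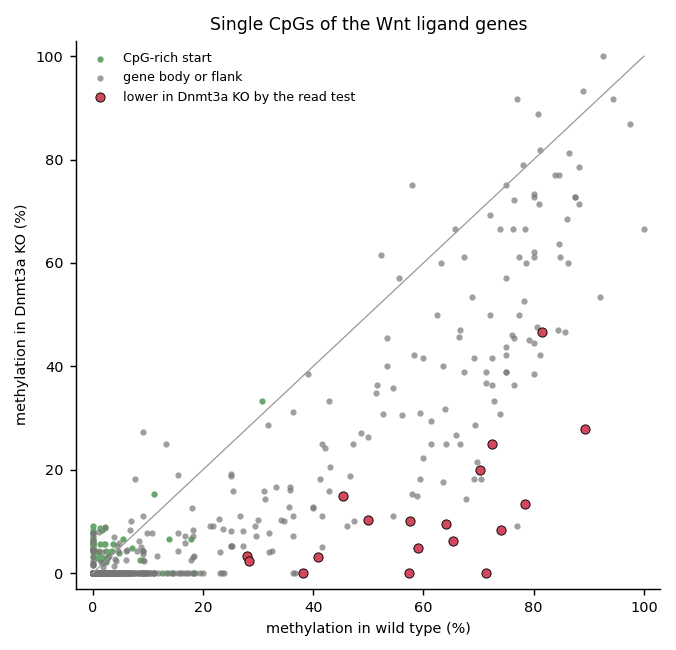
Methylation (%) of the 943 shared CpGs in wild type (x axis) and Dnmt3a KO (y axis), with start CpGs in green, other CpGs in grey and the 18 called CpGs in red; the line marks equal values. The called CpGs lie between 28.0% and 89.3% in wild type.

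Over the 147 methylated CpGs outside the starts, the mean was 64.3% in wild type against 39.1% in Dnmt3a KO, or -25.2 points (-27.3 to -23.1), with 136 lower, 10 higher and 1 equal. Of all 147511 methylated shared CpGs of the genome 79.1% were lower, and their means were 71.3% and 55.7% (-15.6 points). The Wnt CpGs had lower wild-type levels, so both sets were compared within bands of the mean of both libraries. The genome set is not limited to gene bodies and flanks outside starts, so the sets also differ in region. From 20% to under 50%, the 72 Wnt CpGs had a difference of -31.8 points (-34.7 to -28.9) against -25.4 over the genome, and all 72 were lower, as were 89.4% over the genome. From 50% to under 80%, the 61 Wnt CpGs had -22.0 (-25.4 to -18.5) against -16.7. From 80% up, the 14 Wnt CpGs had -5.01 (-11.3 to 1.28) against -2.63. The genome value lies outside the interval of the Wnt CpGs in the lower bands and inside it in the highest. Neighbouring CpGs change together and the 147 come from 9 genes, so these intervals do not test whether Wnt genes differ from other genes. Without Wnt3a, the difference over the remaining 114 methylated CpGs was -22.7 points. Per gene, the methylated CpGs of Wnt10a differed most (-45.1 points over 5 CpGs), then those of Wnt3a (-33.6 over 33), and those of Wnt5a least among genes with at least 5 (-17.5 over 5).

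The difference was uneven within genes. Of 38 clusters of at least 3 shared CpGs outside the starts, 37 were lower in Dnmt3a KO, and for 26 the interval lay under 0. Of the 20 with a mean of both libraries of 20% or more, 15 had such an interval. The largest fall of a cluster was that of 11 CpGs in coding exon 4 of Wnt3a, between 40780 and 40925 bp from the gene start. Its mean was 70.9% in wild type against 19.6% in Dnmt3a KO (-51.3 points, -58.4 to -44.1). The 12 CpGs of Wnt3a in coding exon 3 and intron 3, at 34213 to 34522 bp, had a wild-type level much like it, 70.4%, but kept 46.1% (-24.3 points, -32.4 to -16.2). The intervals of these neighbouring clusters of 1 gene do not overlap. The first was picked as the largest fall, for which its interval makes no allowance, so this is not a test.

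Wnt7b showed the same unevenness along its introns. The 4 CpGs of intron 1, at 8725 to 8826 bp, had 71.7% in wild type against 21.9% in Dnmt3a KO (-49.8 points, -63.9 to -35.6). The 5 CpGs farther into that intron, at 21785 to 21851 bp, had 69.8% and 47.9% (-21.9 points, -33.4 to -10.4), and 4 CpGs at the 3′ end of the gene, at 46116 to 46174 bp, had 83.1% and 80.7% (-2.39 points, -15.5 to 10.8). The first and the last of these differences have intervals that do not overlap. They are the largest and smallest falls among the Wnt7b clusters of at least 3 CpGs outside the start, so this is not a test either. In Wnt11, 12 CpGs of intron 3 and coding exon 4 had 44.9% and 16.6% (-28.3 points, -33.4 to -23.2), while 4 CpGs after the gene end had 88.8% and 77.1%. The one cluster with a higher mean in Dnmt3a KO was also in Wnt11, where 11 CpGs at 1097 to 1230 bp had 3.97% and 5.31% (1.34 points, -3.89 to 6.56).

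In Wnt6 and Wnt10a, both on chromosome 1, levels varied between neighbouring stretches of the body. The 25 CpGs in coding exons 2 and 3 and the intron between them in Wnt6 had 26.6% in wild type against 9.84% in Dnmt3a KO. In intron 1, the CpGs at 2225 and 2332 bp had 34.7% and 43.0% in wild type. The 58 CpGs from intron 3 to the end of exon 4 had means of 1.79% and 0.0750%, and the highest of them, at 11747 bp, had 32.6% in wild type. In Wnt10a, 5 CpGs of coding exon 2 had 54.8% and 9.86%, and 45 CpGs of intron 3 and coding exon 4 had 0.485% and 0.332%. A cluster of 13 CpGs after the end of Wnt10a had 11.5% and 0.816% (-10.7 points, -15.3 to -6.06). In Wnt3, 2 clusters in intron 2 with 23 and 9 CpGs were low in both libraries (0.198% and 0.197%, and 0.940% and 0.227%), and 6 CpGs of coding exon 4 had 47.6% and 28.2%.

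**Figure D4:**
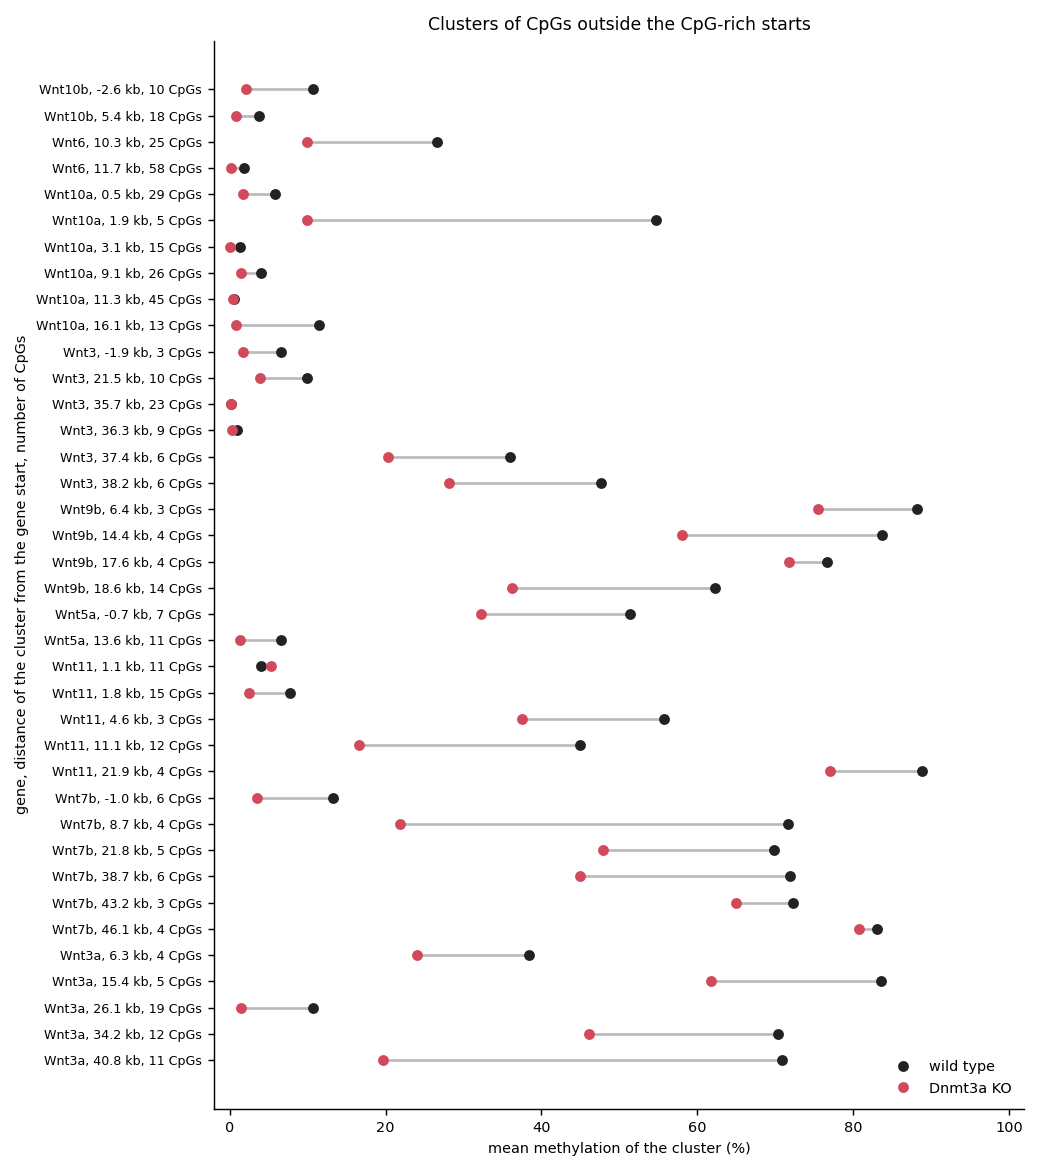
Mean methylation (%) in wild type (black) and Dnmt3a KO (red) of the 38 clusters of at least 3 shared CpGs outside the CpG-rich starts, in the order of the genes and of the distance from the gene start. The red point is to the left of the black point in 37 of the 38, with the longest line at the last cluster of Wnt3a.

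The last coding exon, where sampled outside the start, separated the genes into a methylated and an unmethylated set. It had 70.9% in wild type in Wnt3a (11 CpGs) and 62.2% in Wnt9b (14 CpGs), and these fell to 19.6% and 36.2% in Dnmt3a KO. In Wnt10b it had 3.57% (15 CpGs), in Wnt10a 0.189% (40 CpGs) and in Wnt6 0.0326% (38 CpGs), with 0.970%, 0.373% and 0% in Dnmt3a KO. The last coding exon of Wnt1 lies in a start island and was left out of these sets. Its 26 CpGs had 1.84% in wild type against 0.525% in Dnmt3a KO. Most exon CpGs of both sets lie in CpG islands by sequence. Over all the genes, the 301 CpGs outside the start that lie in another island had 11.1% in wild type against 4.59% in Dnmt3a KO. The 198 outside any island had 39.9% and 24.5%.

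Methylation went with the density of CpGs. Methylated CpGs had a median of 8 CpGs within 100 bp, and CpGs under 20% a median of 17. The 33 CpGs with at most 4 CpGs within 100 bp had a mean of 54.4% in wild type against 38.5% in Dnmt3a KO. The 289 with 20 or more had 1.12% and 0.465%. CpGs within 500 bp of a transcript start had 1.69% and 0.727%, those at 500 to 1000 bp 7.005% and 3.42%, those at 1000 to 2000 bp 5.77% and 2.06%, those at 2000 to 5000 bp 11.9% and 3.27%, and those at 10000 bp or more 26.2% and 16.0%. Density and distance go together in these genes, and their parts were not tested apart.

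The distance from the gene start to the first CpG with 20% or more could be read on 11 sides of a gene, and no other side had such a CpG in Dnmt3a KO only. In Dnmt3a KO this CpG was farther away on 5 sides and there was none on 2. It was the same CpG on 2 sides and a nearer one on 2. Downstream of the start of Wnt7b the first such CpG lay at 1760 bp in wild type and 8725 bp in Dnmt3a KO, and in Wnt10a at 789 and 1962 bp. In Wnt10b it lay at 2418 and 3880 bp. In Wnt6 the shift was small, from 2225 to 2332 bp, and upstream of Wnt5a it was 444 to 449 bp. Upstream of Wnt10b and Wnt7b the wild-type CpGs at 2342 and 977 bp had no counterpart in Dnmt3a KO. In Wnt3 and Wnt9b the same CpG came first in both libraries, at 503 and 6381 bp. In Wnt11 the first was nearer in Dnmt3a KO, at 1230 in place of 1997 bp, and in Wnt3a at 6307 in place of 6354 bp. These distances depend on which CpGs were sampled and a single CpG at the limit decides each. The lower levels and depth of the Dnmt3a KO library move with them, and their part was not tested.

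In Dnmt TKO, 9 of 9699 reads at the CpGs of the 10 genes were methylated (0.0928%, 0.0488% to 0.176%), near the 0.0931% of the whole library. All 9 were in introns of Wnt7b, with 1 read at each of 9 CpGs, and the other 9 genes had 0 of 8347 reads. At a depth of exactly 10 reads, just under the limit, a CpG of Wnt9b (position 103598500 of chromosome 11) had 1 methylated read. Of the 9 CpGs, 4 lie between 85373445 and 85373488 of chromosome 15 in intron 3 and 3 between 85384060 and 85384099 in intron 2, where 1 read can cover several CpGs. At the 432 CpGs covered in all 3 libraries, means were 10.2% (wild type), 5.84% (Dnmt3a KO) and 0.0756% (Dnmt TKO). At the 55 of these that were methylated and outside a start it was 63.7%, 41.3% and 0.594%. Wnt7b supplied 15 of the 55, with 70.3%, 44.1% and 2.18%.

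The other genes of the pathway were read for context from fixed lists. Outside the start, 35 of 49 measured pathway genes were lower by 5 points or more (71.4%, against 63.9% of all genes) and 0 were higher by as much (0.827% of all genes). Their median difference was -9.11 points, that of the 9 genes described here -10.6 and that of all genes -8.17. Of the other Wnt ligands, 6 of 8 were lower, with a median of -14.1 points. Wnt9a had 61.8% in wild type against 39.4% in Dnmt3a KO, and Wnt4 62.3% and 51.2%. Of the receptors 7 of 9 were lower, of the secretion genes 2 of 2, of the secreted inhibitors 5 of 9, of the R-spondins and their receptors 4 of 6, of the signal transduction genes 10 of 11 and of the targets 1 of 4. Among pathway genes with at least 5 shared CpGs there, the largest falls were those of the inhibitor Dkk4 (61.9% to 23.3%), the receptor Fzd9 (62.0% to 33.3%), Notum, an enzyme that removes the lipid from Wnt proteins (66.9% to 40.02%), the inhibitor Sfrp2 (74.3% to 50.4%) and the ligand Wnt2b (52.8% to 29.1%). At the other end stood the inhibitors Sfrp1 (44.0% and 44.5%) and Dkk1 (0.729% and 1.18%) and the target Sp5 (0.0874% and 0%). Among all 9910 genes, the differences of the 9 ligand genes lay between percentile 7.05 (Wnt3a) and percentile 67.6 (Wnt10a), where a low percentile is a larger fall, so they were spread over much of the range. Of the marker lists, 1 of 2 ES cell genes and 2 of 5 feeder fibroblast genes were lower by 5 points or more outside the start.

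**Figure D5:**
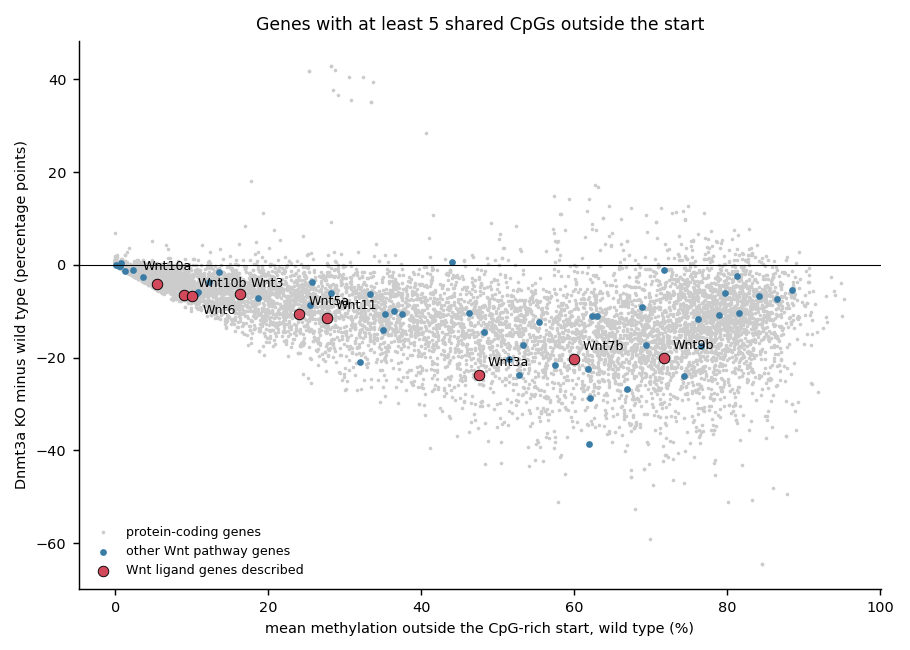
Difference between Dnmt3a KO and wild type in percentage points against the wild-type mean (%) outside the CpG-rich start, for 9910 protein-coding genes (grey), the other Wnt pathway genes (blue) and the 9 Wnt ligand genes with enough CpGs (red, named). A gene cannot fall by more than its wild-type level, and the ligand genes lie within the cloud of all genes.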

How the data were processed

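DNA of the 3 ES cell genotypes was cut with MspI, size-selected at 150 to 250 and 250 to 350 bp and bisulfite-converted. The methods describe libraries of both sizes, and how they enter the deposited table is not given in the sources used here. Per the methods and the submitters' processing notes, reads were trimmed with Trim Galore and aligned to mm9 with QuasR, which runs Bowtie, and CpGs at SNPs were removed. Identical PCR reads were filtered by a general statement of the methods that does not name RRBS. The authors deposited, for each CpG, the count of all reads and the count of methylated reads, not normalized. The fraction of methylated reads was computed from these deposited counts. The study used CpGs covered more than 20 times, and here more than 10 was used, with more than 20 as an alternative. Depth was a median of 29, 17 and 12 reads per listed CpG, and the lowest listed depth was 10.

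Genes were those of GENCODE vM1. All 2508753 listed positions on chromosomes 1 to 19 and X were CG in mm9. CpG islands were merged 500-bp windows whose GC content reached 55% and whose observed over expected CpG ratio reached 0.65. Differences are means over shared CpGs, with intervals from the read counts, and shares of reads have Wilson intervals. Limits beside a share of 0 are 3 reads of the total. Fisher's exact test was adjusted by Benjamini-Hochberg over all 631561 shared CpGs. Scripts used Python 3.11.15, scipy 1.17.1 and numba 0.67.0 and were tested on simulated data. Named CpGs were the called ones with the largest difference in each gene or, with no call, the one with the highest mean, and of pathway genes with at least 5 shared CpGs outside the start the 5 largest falls and 3 largest rises. The last of these, Sp5, did not rise, since only 2 of these genes did. The genes and lists were chosen with earlier results of these data known.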

Additional observations from a re-analysis of the deposited data

How the results depend on the processing

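Of 41 other settings, 29 left a result within its interval, or a count within 1.5 times, 12 moved it and none turned its direction. Some of the 29 could not move a value. No shared CpG lay near another gene's start, so leaving such CpGs out changed nothing. The other definition of the start left the pooled Dnmt TKO reads as they were. By this rule a count or the Dnmt TKO share could not turn direction. With CpGs over 20 reads, the difference was -6.27 points in gene bodies, -15.5 in flanks (12 CpGs) and -28.2 at methylated CpGs, 5 of 8 genes were lower by 5 points or more, Dnmt TKO had 0% methylated reads, and the first CpG at 20% was farther or absent in Dnmt3a KO on 3 of 7 sides in place of 7 of 11. With reads pooled, gene bodies differed by -7.01 points and 5 of 9 genes were lower. With the start taken as 1000 bp around transcript starts, the difference was -1.78 points at starts and -9.13 in gene bodies. At CpGs with a mean of both libraries of 50% or more it was -18.8 points, and with 10% ending the unmethylated span 11 of 15 sides were farther or had none. The causes were not tested. Leaving out each gene in turn, chosen after seeing the data, gave -12.3 to -8.21 points in gene bodies and -26.4 to -22.7 at methylated CpGs, the lowest value in size being that without Wnt3a in both. Depth limits the calls: 84 methylated CpGs that were lower by 20 points or more had no call. No paired analysis was possible because each genotype has 1 deposited sample.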
